A study of Arabidopsis thaliana with 6 samples.

Results

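Of the chromosome regions that SWN-GFP occupied in Arabidopsis seedlings with and without VAL1 and VAL2, 438 kept a peak in all 4 libraries but lost at least 40% of their covered length in the val1 val2 double mutant. They were found by merging overlapping peaks of the 4 deposited peak lists on chromosomes 1 to 5 into 13169 union regions, of which 4079 had a peak in every list and are called shared regions below. The covered length of a region in a list is the sum of its peak lengths there. A region was called shrunken when the mean covered length of the 2 lists of the double mutant was at most 0.6 times that of the 2 lists with VAL1 and VAL2 intact. The regions were thus chosen by their covered lengths, and the difference between genotypes in covered length, peak number and peak strength is given as a description with no test.

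SWINGER (SWN) is a histone methyltransferase of Polycomb repressive complex 2, which places methyl groups on lysine 27 of histone H3 and keeps developmental genes silent outside their time and tissue. In plants this complex often acts over whole gene bodies: it is thought to settle at a short nucleation site first and then to spread along the gene. VAL1 and VAL2 are repressors with a B3 domain that binds the RY motif, and they are known for silencing the seed maturation programme after germination and FLC during vernalization. A shared region that shortens is therefore a place where SWN was still called at some site but over less of the surrounding chromatin.

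All groups came from seedlings 14 days old, grown on plates at 22 °C with 16 h of light and 8 h of dark after 3 days of cold at 4 °C. All carried SWN-GFP driven by the SWN promoter in a swn mutant, and one genotype also carried val1 and val2 mutations. They are named SWN-GFP and, for the double mutant, val1 val2 below. Chromatin was precipitated with an antibody against GFP and sequenced in 2 libraries a genotype, and 1 input library a genotype had no list of its own and was not analysed here. Seedlings without the tag were not among the samples, and the genotypes could not be checked from peak positions. Whether the libraries of a genotype are separate batches of seedlings is not in the labels, and their spread may be technical. With 2 libraries against 2, no exact permutation test could have passed the usual threshold. The lists held 8189 and 8666 peaks for SWN-GFP and 9177 and 9618 for val1 val2, and the read depth behind them is unknown. Fewer seedling cells with SWN at a site and less SWN per cell cannot be told apart in such whole-seedling samples.

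The shrunken regions were 10.7% of the shared regions, and regions that changed as far in the other direction were not fewer. In 547 shared regions (13.4%) the double mutant covered at least 1.67 times the SWN-GFP length, and the median ratio of all shared regions was 1.05. By the mean covered length over all 4 lists, shrunken regions made up 14.2% of the 1770 shared regions of over 500 and up to 1000 bp, 8.90% of the 1180 of over 1000 and up to 2000 bp, and 2.90% of the 138 longer than 3000 bp. Expanded regions made up 15.8%, 12.0% and 1.45% of the same classes. Of the 725 regions of up to 500 bp, 8.97% were shrunken and 15.6% expanded. Of the 266 of over 2000 and up to 3000 bp, 4.89% were shrunken and 4.14% expanded. Shrinkage of this size was thus most frequent at over 500 and up to 1000 bp and affected only 4 of the longest. Changes in both directions were rarer in long regions. No list held a peak shorter than 200 bp, which left the shortest regions little room to shrink.

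**Figure D1:**
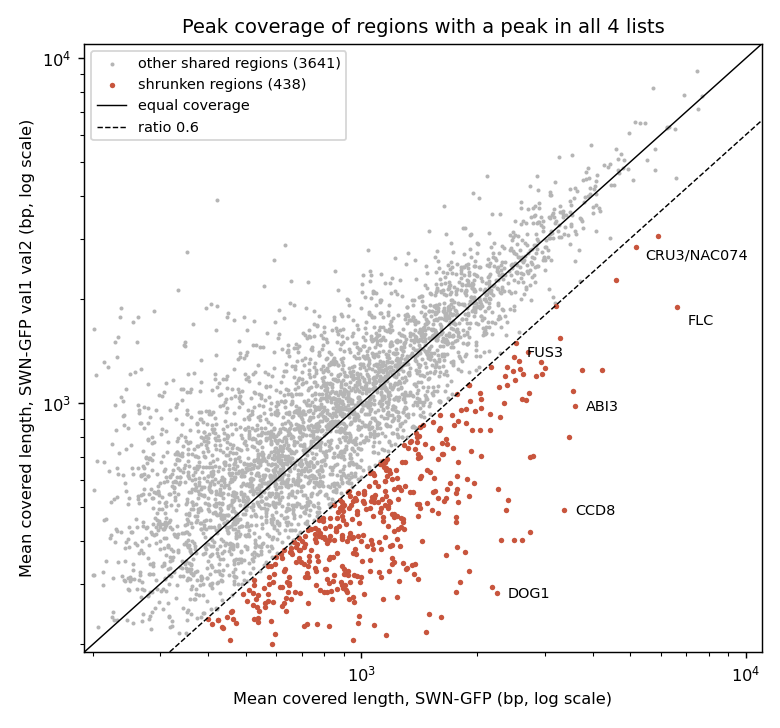
Mean covered length in bp of each of the 4079 shared regions in SWN-GFP (horizontal axis) and val1 val2 (vertical axis), both on log scales, with 1 point a region. The 438 shrunken regions are coloured and lie on or under the dashed line of ratio 0.6; DOG1, with a ratio of 0.125, lies farthest below it.

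Per list, the 438 regions held 545 and 558 kb under peaks in SWN-GFP and 223 and 240 kb in val1 val2. The means were 552 ± 9.1 kb and 231 ± 12 kb (SD, n = 2 each). These regions made up 9.87% and 9.48% of all covered length for SWN-GFP and 3.75% and 3.78% for val1 val2. The other shared regions together covered more in the double mutant, with 3666 and 3791 kb in SWN-GFP and 4135 and 4296 kb in val1 val2. The shrunken regions therefore stood against a somewhat greater summed covered length in the other shared regions. The rule had taken every region with a ratio of at most 0.6 out of that set, which adds to this difference.

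In 237 members (54.1%) the mean SWN-GFP covered length was over 1000 bp, against 38% of all shared regions. The rule divides by this length and so favours regions that are long in SWN-GFP, and nothing is read from this share. By the mean over all lists, shrinkage was most frequent at over 500 and up to 1000 bp, as given above. The median covered length was 1048 and 1083.5 bp for SWN-GFP and 398.5 and 447 bp for val1 val2. The shortest peak in any list was 200 bp long, so a covered length near this value is the lowest that the lists could give. The median ratio of the genotype means was 0.459, with quartiles of 0.353 and 0.531. Between replicates the covered length of a member differed by a median of 0.15 on the log2 scale in SWN-GFP and 0.44 in val1 val2. In other shared regions the replicates differed by 0.22 and 0.20. In 428 of the 438 members both val1 val2 lists covered less than either SWN-GFP list, as they did in 27.1% of all shared regions, a gap that the choice by covered length sets. The 10 members whose libraries overlapped included WOX12, a homeobox gene of root founder cells, covered over 388 and 811 bp in SWN-GFP and over 398 and 318 bp in val1 val2. Another was AT3G61680, with 665 and 1176 bp and then 316 and 788 bp.

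Regions on either side of the threshold had close values. The last regions inside it were PERK3, AT3G61680 and AT3G43110, with ratios of 0.599 to 0.600. The first outside it lay at AT3G22560, AT1G77640 and MGH3, each with a ratio of 0.601. AT1G77640 was covered over 1060 and 1054 bp in SWN-GFP and over 529 and 742 bp in val1 val2, which is a shortening of the same kind as in the members.

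What remained in the double mutant lay mostly inside the SWN-GFP domain. In 344 of the 438 members every bp of the val1 val2 peaks was also under a SWN-GFP peak, and 23.7% of all shared regions showed the same. At least 90% of the val1 val2 length was so placed in 406 members, against 55.9%. Both ends of the covered stretch were drawn in by over 100 bp in 226 members, 1 end only in 211 and neither in 1, against 8.21%, 27.5% and 64.3% of all shared regions. A region that lost this much length had to draw in an end or open gaps, so these shares, like the others in this comparison of placement, follow in part from the choice of members. The pull was uneven: the more moved end was drawn in by a median of 450 bp and the less moved end by 107 bp. The strongest SWN-GFP summits of both lists were still under a peak in both val1 val2 lists in 235 members, or 53.7%, against 84.7% of all shared regions. Within 200 bp of a peak the number was 343, against 95.9%. In 203 members at least 1 former summit was therefore no longer under a peak in both lists.

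**Figure D2:**
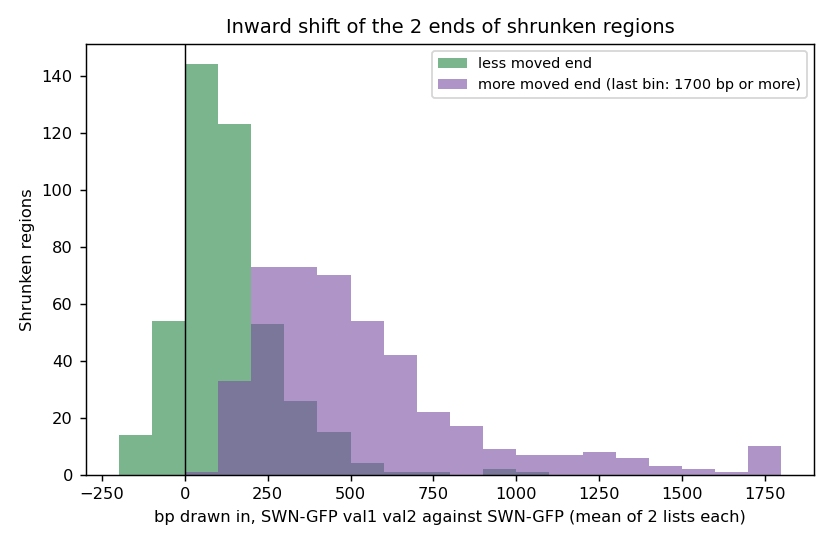
Number of the 438 shrunken regions (vertical axis) by the bp that each end of the covered stretch was drawn in, as the mean of the val1 val2 lists against the mean of the SWN-GFP lists (horizontal axis, bins of 100 bp). The less moved ends centre on a median of 107 bp and the more moved ends on 450 bp.

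The share of the members' covered length that lay in genes was higher in val1 val2. Protein-coding gene spans held 71.9% and 71.2% of the members' covered length for SWN-GFP and 76.9% and 77.7% for val1 val2. In the other shared regions the order was the opposite, with 69.2% and 68.7% and then 66.9% and 66.4%. The strongest summits of members showed no such rise, with 81.7% and 82.4% in such spans for SWN-GFP and 80.1% and 80.6% for val1 val2. The share of covered length depends on the lengths by which the members were chosen, and what set it was not tested. The gene table gave no strand, so the remaining part could not be placed against gene starts.

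Breaking of a peak into several was a rare form of shrinkage. In 260 members (59.4%) each of the 4 lists had a single peak, as in 60.7% of all shared regions. In 336 (76.7%) both lists of the double mutant had 1 peak only, against 72.6%. Only 13 members had more peaks in each list of the double mutant than in any SWN-GFP list, which is 2.97% against 3.04% of all shared regions. The number was 41 when replicate 1 of the double mutant was left out and 34 without its replicate 2. In 11 members, against 2.62% of all shared regions, a single peak of both SWN-GFP lists stood against 2 or more in both lists of the double mutant. In 52 members, against 12.2%, it did so in at least 1 of them. As many members went the other way: 15 had fewer peaks in both lists of the double mutant, against 3.51%, and 13 went from 2 or more peaks to 1, against 2.75%. The members held 534 and 516 peaks for SWN-GFP and 512 and 523 for val1 val2.

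The member with the most pieces lay over FLC (AT5G10140), a MADS-box gene that holds back flowering, together with the non-coding gene AT5G01675 that overlaps it. A single peak of 6609 and 6630 bp in the SWN-GFP lists stood against 5 and 4 peaks of 1812 and 1991 bp in all in the val1 val2 lists, a change in the mean of -71.3%. The pieces were spread along the former domain, so the stretch from first to last piece still had 0.940 of its former length. The strongest piece, on chromosome 5, ran from 3178730 to 3179534 in replicate 1, and from 3178735 to 3179723 in the other replicate. Its summits, at 3179264 and 3179273, were close to those of the broad SWN-GFP peaks at 3179257 and 3179253. The pileup, which is the number of fragments over the summit, was 195 and 220 there in SWN-GFP and 49 and 74 in val1 val2. A second piece recurred in both replicates inside FLC, at 3175882 to 3176098 and 3175870 to 3176271, with the authors' fold enrichment over local background at 2.54 in each list. At the low-coordinate end the first pieces of the replicates lay apart, at 3173373 to 3173650 and 3173710 to 3174060. The next ones overlapped in part, at 3174393 to 3174690 and 3174212 to 3174460.

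Another broad domain in several pieces lay over CRU3 (AT4G28520), which encodes a 12S cruciferin seed storage protein, and the neighbouring gene NAC074 (AT4G28530), a NAC transcription factor gene. Single peaks of 5960 and 5871 bp in SWN-GFP stood against 4 peaks of 3157 bp and 3 peaks of 2935 bp in all in val1 val2, a change of -48.5%. The 2 genes fared differently: CRU3 stayed covered over 2082 and 2017 bp of its 2241 bp, whereas the coverage of NAC074 went from 2505 and 2403 bp to 906 and 778 bp. The strongest summit also changed place. It was at chromosome 4, 14091030 and 14091016 in SWN-GFP and at 14087650 and 14087756 in val1 val2, within the longest remaining piece. The former summits were still under another piece in both val1 val2 lists, at 14090601 to 14091185 and 14090565 to 14091342.

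Further genes were left with several pieces. GPAT2 (AT1G02390), a glycerol-3-phosphate acyltransferase gene, was under a single peak of 2957 and 2904 bp in SWN-GFP. In val1 val2 it had a left piece at chromosome 1, 480779 to 481371 and 480667 to 481427, and a right piece at 482376 to 483086 and 482247 to 482816. CLE41 (AT3G24770), which encodes a peptide that maintains vascular stem cells, went from single peaks of 2329 and 2476 bp to 2 short peaks of 529 and 522 bp in all. Neither short peak covered the former summits at chromosome 3, 9045493 and 9045526. The neighbouring xyloglucan-modifying genes XTR6 and XTH14 shared a region of 3330 and 3232 bp in SWN-GFP that had 3 pieces in both val1 val2 lists, 1464 and 1625 bp in all. There XTH14 stayed covered over 1165 and 1339 bp of its 1570 bp, and XTR6 over 299 and 278 bp of its 1534 bp. VGDH1, a pectin methylesterase gene of pollen, had 4 and 3 pieces, and LOX4, a lipoxygenase gene of jasmonate synthesis, had 3 pieces in each replicate in place of 2 peaks.

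**Figure D3:**
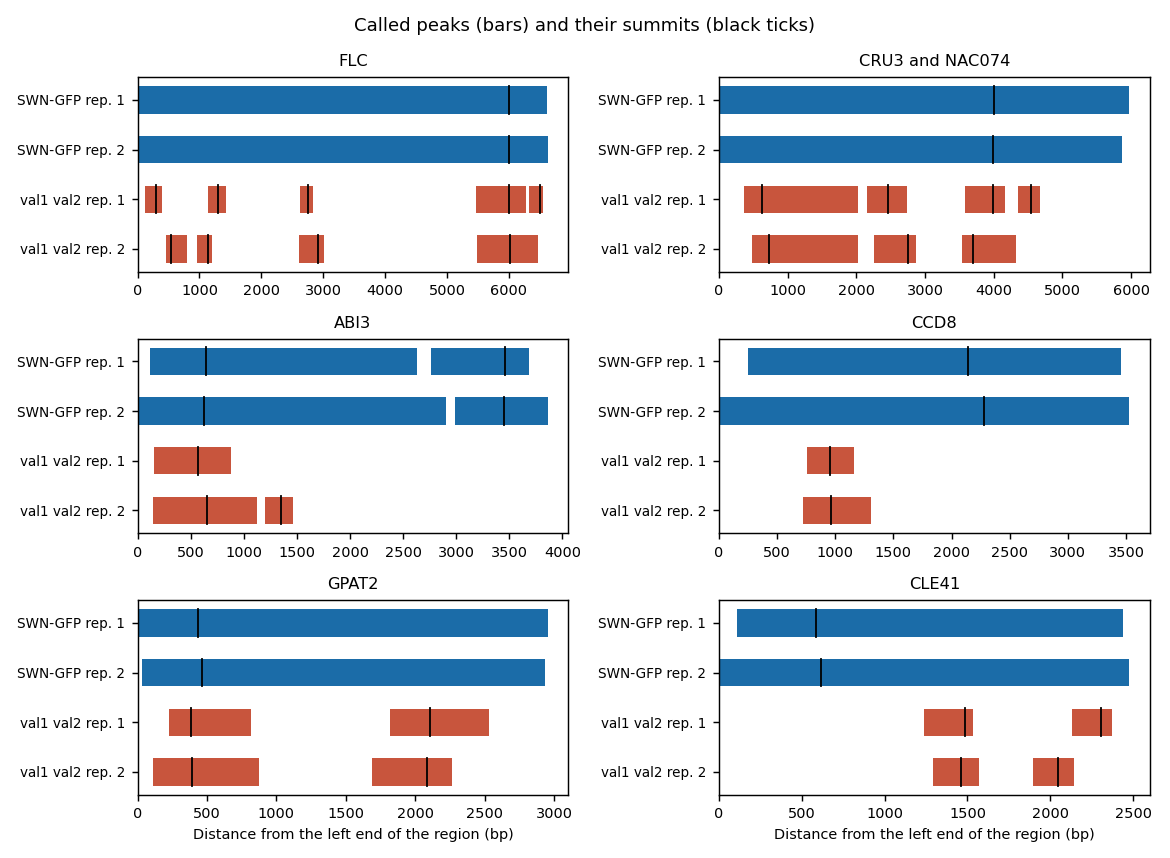
Called peaks (bars) and their summits (black ticks) in the 4 lists at 6 shrunken regions, against the distance in bp from the left end of the region. FLC, CRU3 with NAC074, GPAT2 and CLE41 had single broad peaks in both SWN-GFP lists and several short ones in both val1 val2 lists, whereas CCD8 kept a single short peak and ABI3 kept its left part.

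Other large losses left a single peak in at least 1 list of the double mutant. CCD8 (AT4G32810), a carotenoid cleavage dioxygenase gene of strigolactone synthesis, was covered over 3205 and 3528 bp in SWN-GFP and over 398 and 584 bp in val1 val2 (3366.5 ± 228 and 491 ± 132 bp, SD, n = 2 each), a change of -85.4%. Its remaining peak did not hold the former summits, which lay 1253 bp from the remaining ones in the median over the 4 pairs of lists. ABI3 (AT3G24650), a B3 activator of seed maturation, was covered over 3434 and 3774 bp and then over 723 and 1247 bp. The right end was drawn in by 2602.5 bp and the left end by 91.5 bp, and the summit moved by only 45 bp. At AT2G25770 the coverage was 3212 and 3712 bp and then 592 and 1001 bp, drawn in from both ends. At the gene cluster AT3G12440, AT3G12450 and AT3G12460 it was 4246 and 4197 bp and then 1228 and 1262 bp. There AT3G12440 remained covered over 1060 and 928 bp, while AT3G12450 and AT3G12460 had no peak left. In none of these 4 regions did the libraries of the genotypes overlap in covered length, which their choice by bp lost nearly fixed. Both val1 val2 lists covered less than either SWN-GFP list in 97.7% of members and 27.1% of all shared regions.

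At AT1G33750 and AT1G33760 the coverage was 3743 and 3734 bp and then 1327 and 1169 bp, and around AT2G47550 it was 4715 and 4483 bp and then 2344 and 2211 bp. The remaining regions among the 10 with the most bp lost were 2 that overlapped no gene. One lay at chromosome 1, 10692487 to 10696265, with 3306 and 3779 bp in SWN-GFP and 1109 and 1064 bp in val1 val2. The other lay at chromosome 5, 20083135 to 20088656, with 5214 and 5124 bp and then 2829 and 2848 bp. In all, 32 members overlapped no gene span, or 7.31%, where 9% of all shared regions did. A single gene was overlapped by 344 members (78.5%, against 76.7%), more than 1 by 62 (14.2%, against 14.3%) and a protein-coding gene by 388 (88.6%, against 85%).

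**Figure D4:**
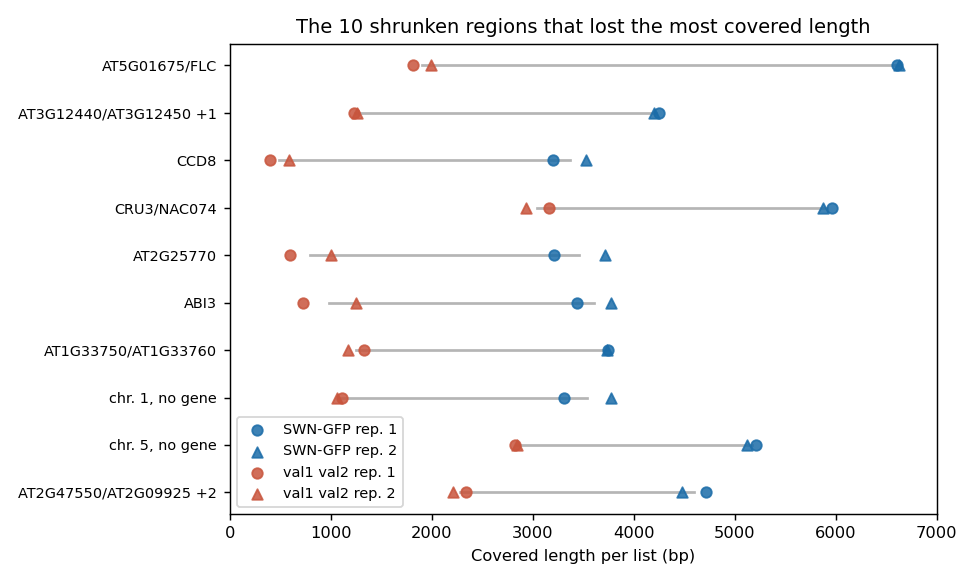
Covered length in bp in each list (circles for replicate 1, triangles for replicate 2) of the 10 shrunken regions with the largest mean loss, with a grey line between the genotype means. In each region both val1 val2 values lie left of both SWN-GFP values, as in 27.1% of all shared regions, and FLC has the widest gap. The choice by mean loss nearly fixes this order.

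By ratio, the most shortened member was DOG1 (AT5G45830), the regulator of seed dormancy. It was covered over 2368 and 2136 bp in SWN-GFP and over 324 and 241 bp in val1 val2 (2252 ± 164 and 282.5 ± 58.7 bp, SD, n = 2 each), a ratio of 0.125. A gene-free region at chromosome 1, 1997884 to 2000219 followed with a ratio of 0.134. The next were CCD8, AT1G18230 with the non-coding gene AT1G05397 (0.147), ECP63, a late embryogenesis abundant protein gene (0.149), UMAMIT36, a gene of the amino acid transporter family (0.154), and LRX2, a leucine-rich extensin gene of the cell wall (0.155). SWN-GFP peaks of both replicates spanned all 2361 bp of LRX2, and those of val1 val2 took up 554 and 294 bp of it. AT5G39890, FMO and AT1G06360 followed with ratios of 0.160 to 0.163. None of the 10 members with the lowest ratios kept both SWN-GFP summits under a peak in both lists of the double mutant. They were chosen for little remaining length, which makes this likely, and nothing is read from it.

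The peaks that became shorter were also weaker within their lists. The fold at the strongest peak of a member had a median of 4.34 and 4.28 for SWN-GFP and 2.79 and 2.78 for val1 val2. Each fold belongs to its own list, whose control and depth are unknown. In other shared regions the medians were 3.94 and 3.91 and then 4.07 and 3.94. By percentile within the own list, members had medians of 75.4 and 76.9 in SWN-GFP and of 43.3 and 47.4 in val1 val2. Both val1 val2 folds were lower than either SWN-GFP fold in 373 members, or 85.2%, against 37% of all shared regions. The percentile was lower in the same way in 342 members (78.1%), against 27.4%. In 63 members (14.4%, against 2.4%) both folds of the double mutant were at most 0.5 times the lower SWN-GFP fold. A fold of at least 4 in both SWN-GFP lists was seen in 222 members (50.7%, against 43.2%). In both lists of the double mutant 103 members reached a fold of 3 (23.5%, against 66.4%) and 191 a −log10 q of 5 (43.6%, against 80.8%). These shares come from the contrast that chose the members, and nothing is read from them. Since a caller ends a peak where its threshold is no longer met, a lower signal gives a shorter peak, and length and strength are not separate evidence.

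The exceptions went both ways. In 10 members the fold was higher in both lists of the double mutant, as in 30.1% of all shared regions, although the peaks were shorter. They included PIN5, an auxin carrier gene of the endoplasmic reticulum, with a fold of 2.99 and 3.14 in SWN-GFP and 3.60 and 3.17 in val1 val2. The homeobox gene HB20, with 2.74 and 2.73 and then 3.33 and 3.52, and the arabinogalactan protein gene AGP1 were others. A fold of at least 4 in both val1 val2 lists was seen in 25 members, against 39.1% of all shared regions. FUS3 (AT3G26790), a B3 activator of seed maturation, had the strongest of them, with 24.7 and 22.7 in SWN-GFP and 12.1 and 13.1 in val1 val2. Its summit moved by 5.5 bp and its coverage went from 2633 and 2424 bp to 1611 and 1385 bp. AIL5, a gene of the PLETHORA group of AP2 transcription factors, had 14.9 and 13.0 and then 8.42 and 8.41.

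**Figure D5:**
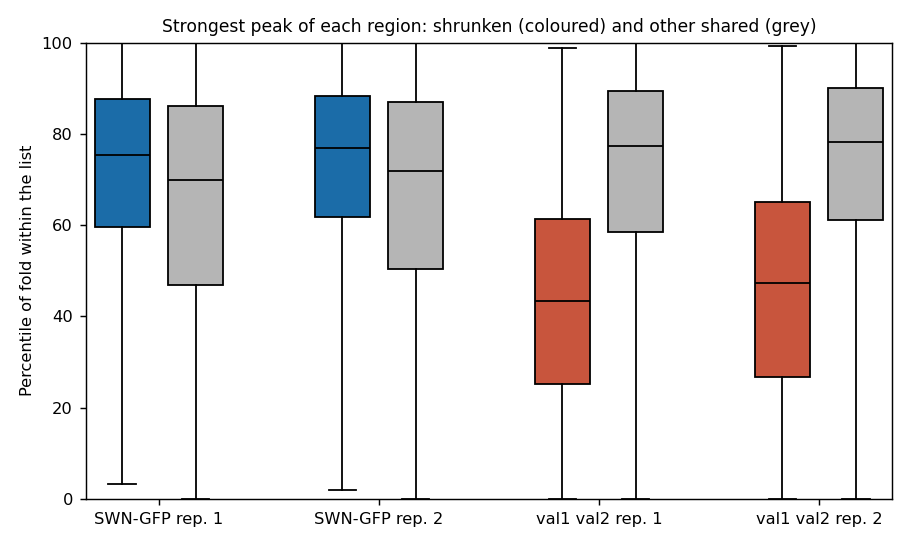
Percentile of the authors' fold at the strongest peak of each region within its own list (vertical axis), for the 438 shrunken regions (coloured) and the 3641 other shared regions (grey) in each of the 4 lists; boxes are quartiles with the median and whiskers reach the lowest and highest value. The medians of the shrunken regions are 75.4 and 76.9 in SWN-GFP and 43.3 and 47.4 in val1 val2.

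Of the gene lists, that of embryo maturation held the most members. Of its 17 embryo maturation regulators, 9 lay in shared regions and 6 of these in shrunken ones, where 11.5% of all 4193 genes in shared regions did (12.8% with 1000 bp added on either side of each gene). The median ratio of the 9 was 0.591, against 1.04 for all these genes, and none was in an expanded region. Those not in shrunken regions were LEC2, BBM and MYB118, and none of them was shorter in the mean in val1 val2. MYB118 was covered over 1585 and 1774 bp in SWN-GFP and over 2538 and 2503 bp in val1 val2. LEC2 was covered over 1406 and 1414 bp and then over 1674 and 1536 bp. At BBM the libraries overlapped, with 2081 and 2492 bp and then 2287 and 2426 bp. VAL1 and VAL2 are known repressors of the embryo maturation programme. The list was made with earlier results of these data known, so it is not independent evidence. Besides ABI3, FUS3 and DOG1 the members were ABI4, an AP2 transcription factor gene of abscisic acid signalling, the MADS-box gene AGL15 and DPBF2 (AT3G44460), a bZIP factor gene also called bZIP67.

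DPBF2 was covered over 1272 and 1289 bp in SWN-GFP and over 214 and 476 bp in val1 val2, a change of -73.1%. Its fold was 9.61 and 7.45 and then 2.23 and 2.73. AGL15 was covered over 822 and 972 bp and then over 344 and 240 bp, a change of -67.4%. Only 100 bp of the AGL15 gene span itself were left under a peak in replicate 1 of the double mutant and none in replicate 2. ABI4 was covered over 1700 and 2116 bp and then over 1004 and 1252 bp, a smaller change of -40.9%.

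Of the 17 seed storage and oil body genes, 8 lay in shared regions and 3 of these in shrunken ones (37.5%, against 11.5% of all genes). The median ratio of the 8 was 0.696. Those not in shrunken regions were SESA1, EM6, CRA1, EM1 and LEA76, with ratios of 0.656, 0.736, 0.947, 1.25 and 1.42. CRU3 is described above. The 2S albumin genes SESA2 and SESA4 are neighbours on chromosome 4. SESA2 was covered over 1095 and 1203 bp in SWN-GFP and over 604 and 413 bp in val1 val2, and SESA4 over 1043 and 1284 bp and then over 643 and 735 bp. The fold at SESA4 was 12.1 and 12.6 and then 3.96 and 4.60, a larger difference than in its length. Genes of late embryogenesis abundant proteins outside the list, named after their values were seen, were ATECP31 (553 and 587 bp, then 246 and 290 bp) and LEA18 (1262 and 1172 bp, then 443 and 410 bp).

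Of the 22 flowering time genes 12 lay in shared regions, and 4 of these were in expanded ones. FLC was the only one in a shrunken region (8.33%, against 11.5% of all genes). The median ratio of the 12 was 1.36, against 1.04 for all genes in shared regions. VIN3, a PHD-domain gene that acts on FLC in the cold and was not on the list, was covered over 1724 and 1456 bp in SWN-GFP and over 648 and 1026 bp in val1 val2. Of the phase change genes, 2 of 11 in shared regions (18.2%, against 11.5% of all genes) were in shrunken ones and 3 in expanded ones. The median ratio of the 11 was 1.31. The 3 in expanded regions were MIR156d, MIR156e and MIR172b, with ratios of 2.22, 1.71 and 1.92. At MIR156c, a microRNA gene of the juvenile phase, the coverage of the region was 2685 and 2542 bp and then 996 and 1064 bp. At MIR156b it was 1332 and 1439 bp and then 793 and 845 bp. The whole MIR156b span of 183 bp stayed under a peak in all 4 lists, and its fold of 4.31 and 4.34 in SWN-GFP overlapped that of 3.54 and 4.92 in val1 val2.

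Of 17 meristem homeobox and boundary genes in shared regions, 3 (17.6%, against 11.5% of all genes) were in shrunken ones and 2 in expanded ones, with a median ratio of 0.954. Besides WOX12 these were WOX4, a homeobox gene that acts downstream of CLE41 in the vascular cambium, and WOX8, a homeobox gene of the early embryo. WOX4 was covered over 1016 and 402 bp in SWN-GFP and over 389 and 295 bp in val1 val2. WOX8 was covered over 846 and 1024 bp and then over 286 and 794 bp. At WOX4 the SWN-GFP replicates and at WOX8 those of the double mutant lay far apart, unlike at CLE41. AIL6, another PLETHORA gene, was covered over 1937 and 2146 bp and then over 856 and 1086 bp. ULT1, a trithorax-group gene that limits the size of floral meristems, was covered over 1705 and 1687 bp and then over 619 and 557 bp. GL3, a bHLH gene of trichome fate, held 2 separate members, with ratios of 0.539 and 0.344. AIL6, ULT1 and GL3 were named after their values were seen.

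None of the 15 floral MADS-box genes, all of which lay in shared regions, was in a shrunken region, and their median ratio was 1.02. Of the Polycomb and VAL genes 2 lay in shared regions and neither was shrunken. Of the active genes PSAD-1, a photosystem I subunit gene, was the only one in a shared region. It was covered over 721 and 662 bp in SWN-GFP and over 460 and 293 bp in val1 val2.

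Of 14 genes of auxin synthesis and transport in shared regions, 3 were in shrunken regions (21.4%, against 11.5% of all genes). The 2 in expanded ones were YUC10 and TAR1, with ratios of 6.42 and 3.06. The median ratio of the 14 was 0.997. YUC9, a flavin monooxygenase gene of auxin synthesis, was covered over 1088 and 1182 bp in SWN-GFP and over 247 and 296 bp in val1 val2, a change of -76.1%. Its relative YUC1 lay in 2 shared regions. One was shrunken, from 2654 and 2945 bp to 840 and 565 bp, and the other was not, with 413 and 684 bp and then 350 and 848 bp. The count of shrunken genes above takes YUC1 by the former region, and the median ratio by the latter, with its ratio of 1.09. PIN5 was covered over 1613 and 1826 bp and then over 845 and 1004 bp. The auxin response repressor genes IAA30 and AXR3 were also members, and the 6 members with a known auxin role had ratios of 0.239 to 0.546.

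Genes of other hormones were named after their values were seen. They included RGL3, a DELLA repressor gene of gibberellin signalling, covered over 1772 and 1787 bp in SWN-GFP and over 730 and 618 bp in val1 val2. The gibberellin 3-oxidase gene GA3OX4, the cytokinin oxidase gene CKX4 and the jasmonate genes LOX4, AOC3 and JAZ5 were further members. CKX4 was covered over 866 and 785 bp and then over 368 and 338 bp, and JAZ5 over 1785 and 1563 bp and then over 627 and 897 bp. The role group of 10 such genes, CCD8 included, had ratios of 0.146 to 0.569.

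Cell wall genes among the members, put together by hand from the member list with no background share, were 20 genes in 19 regions with ratios of 0.155 to 0.594. Besides LRX2, XTR6 and XTH14 it held XTH18, covered over 2583 and 2561 bp in SWN-GFP and over 1593 and 1051 bp in val1 val2, with a fold of 13.0 and 14.7 and then 5.12 and 4.73. It also held XTH26, XTH33 and the expansin genes EXPA8 and EXPA24, whose products loosen walls. The expansin-named EXPA19, annotated as a transcribed pseudogene, was also a member. EXPA24 was covered over 1273 and 1244 bp and then over 327 and 442 bp. Of the copper oxidase-like genes related to SKU5, sks9, sks10, sks13 and sks18 were members. The region at sks9 went from 2501 and 2268 bp to 524 and 458 bp, whereas the libraries overlapped at sks13.

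Some members are genes of flavonoid and glucosinolate synthesis. MYB11 and MYB12 are related activators of flavonol synthesis. MYB11 was covered over 2003 and 1873 bp in SWN-GFP and over 854 and 823 bp in val1 val2, and MYB12 over 847 and 1083 bp and then over 459 and 299 bp. TT7, a flavonoid hydroxylase gene of the same pathway, was covered over 920 and 939 bp and then over 503 and 314 bp. The glucosinolate genes CYP79F1 and AOP2 had ratios of 0.291 and 0.345, and AOP2 is annotated as a transcribed pseudogene. Taken by family name, 2 of 63 cytochrome P450 genes in shared regions were members, 1 of 36 WRKY genes, 6 of 51 MYB genes, 3 of 30 NAC genes and 7 of 32 WOX and HB homeobox genes. No family test was made, and of all genes in shared regions 11.5% were in a shrunken one.

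In some members a whole gene was without coverage in the double mutant while the region kept a peak elsewhere, over a neighbouring gene or outside genes. Of 461 pairs of a gene and a shrunken region in which both SWN-GFP lists covered part of the gene, 422 (91.5%) were covered in part in both val1 val2 lists and 25 (5.42%) in neither. Over all shared regions the shares were 97.8% and 1.05% of 4108 pairs, and shorter coverage in the members was fixed by the rule. Those 25, of which 17 were protein-coding genes, lay in 22 regions. Some had been barely covered in SWN-GFP, such as AT1G60070 with 12 and 42 bp of its 6924 bp. At PLAT2 (AT2G22170), a PLAT-domain protein gene, 1111 and 1022 bp of its span of 1375 bp were covered in SWN-GFP and none in val1 val2. The region that it shares with AT2G22180 kept a peak of 1198 and 1195 bp with a fold of 7.08 and 7.53. AT5G47300 lost its 542 and 585 bp, while its region with AT5G47290 kept 651 and 807 bp. A gene without coverage could thus lie next to a peak that was among the stronger ones of the list.

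Conversely, 34 protein-coding genes had their whole span under peaks in both SWN-GFP lists within a shrunken region, and 3 of them were still wholly covered in both val1 val2 lists, where 63.3% of 259 such genes in all shared regions were. FLC, CRU3, GPAT2, LRX2 and SESA4 were among those no longer wholly covered. In all, the members overlapped 483 genes, 423 of them protein-coding, 31 long non-coding and 7 microRNA genes. The protein-coding share was 87.6%, and 86.5% among the other genes in shared regions. The protein-coding genes had median lengths of 1801 and 1736 bp.

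Shrunken regions were spread over the genome. They were 121 of 1054 shared regions on chromosome 1, 72 of 674 on chromosome 2, 81 of 790 on chromosome 3, 72 of 645 on chromosome 4 and 92 of 916 on chromosome 5. The median gap between neighbouring members was 149 kb, and 16 of 433 neighbouring pairs lay within 5000 bp of each other. These pairs included SESA2 with SESA4, GRP17 with GRP19, which are oleosin-domain genes of pollen, and both members at GL3.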

How the data were processed

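Chromatin immunoprecipitation libraries were taken from the sample titles: 2 SWN-GFP, 2 SWN-GFP val1 val2 and 2 inputs without a list. The build was TAIR10 and MACS2, Bowtie2, Picard and SAMtools were used, per the submitters' processing notes. Their versions, settings and controls are not stated in the labels. Each deposited list covers 1 library and has no header, and its columns were taken to follow MACS2's usual layout. They hold the authors' peak length in bp, pileup (a signal, in fragments over the summit), −log10 p and −log10 q, and fold enrichment (a ratio of pileup to local background). The lowest deposited −log10 q was 1.31 to 1.33.

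From these, overlapping peaks (1 bp or more) were merged and covered bp, peak numbers and strongest peaks were taken per region and list (Python 3.11.15, pandas 2.3.3). The merging and the ratio were tested on simulated data with a single peak a region, a fixed shrinkage and little noise. That setting is simpler than the real lists and does not show how well members near the limit are found. The strongest peak is the one with the highest fold. Gene names and overlaps came from a RefSeq gene table of TAIR10.1, without strand, and none of its coordinates are printed. Summits of members lay in protein-coding spans in 80.1% to 82.4% and, moved by 1000 bp, in 42.9% to 47.3%.

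The members and the 9 gene lists (161 symbols, all matched) were chosen with earlier results of these data known. Regions were named by a rule: the 10 members each with the most bp lost, the highest SWN-GFP fold, the lowest ratio and the largest rise in peak number, 3 on either side of the threshold, and those over list genes. Other genes were named after their values were seen. The symbols of 5 list genes were tied to a locus tag by hand. Read depth is unknown, so no counting interval is given. Motif shares in promoters were planned and were not run, because no sequence was used here.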

Additional observations from a re-analysis of the deposited data

How the results depend on the processing

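The number of shrunken regions depended on the limits set. It was 279 with a ratio of at most 0.5, and 244 when every SWN-GFP val1 val2 library had to reach 0.6 of every SWN-GFP library. It was 218 with peaks of −log10 q of at least 5, 127 with peaks of a fold of at least 3 and 41 with a fold of at least 4. These sets also held other regions: only 178, 91 and 19 of the 438 members overlapped them. Of the 438 members, 335 had no peak with a fold of 3 in at least 1 list of the double mutant, so they left the shared regions by construction. With a ratio of 0.7, other merging, equal list lengths or the stretch from first to last peak the number was within 1.5 times, from 379 to 652. Without each library in turn it was 433 to 621, and 358 to 380 of the 438 members overlapped the regions so found. The median ratio of the members was then 0.419 to 0.455. Chosen after seeing the data, 430 to 435 members did not overlap between genotypes and 274 to 287 kept the summit. Members with more peaks in SWN-GFP val1 val2 numbered 4 with peaks of a fold of at least 3, and 16 to 41 without each library, with 41 without SWN-GFP val1 val2 replicate 1 and 34 without replicate 2. Breaks thus often rested on 1 list of the double mutant. No paired analysis was possible because the results come from no test, and the labels do not tie the replicate numbers to a shared batch. The depth of each library and the control behind each list are unknown, and genotype cannot be told apart from a batch or input of its own. Shares of promoters with sequence motifs were not run.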
